A study of Homo sapiens with 19 samples.

Results

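In MOLM-13 cells given the vehicle DMSO, 637 broad H3K4me3 domains were found. They were chosen from the H3K4me3 peak lists of the 2 DMSO libraries. The lists were merged, and a merged region was kept when it held a peak of both lists and was 3000 bp or wider. The merge gave 11449 regions, of which 10155 held a peak of both lists, so the domains were 6.27% of the shared regions. The other 9518 shared regions are called narrower regions here. H3K4me3 in DMSO chose the domains, so its level and width are descriptions and carry no test.

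H3K4me3, the trimethylated form of lysine 4 on histone H3, sits around the start sites of active and poised genes. At most promoters it spans a limited stretch around the start site. Unusually wide domains are known from genes that define a cell's identity and from tumour suppressor genes. H3K4me2, the dimethylated form, lies beside H3K4me3 and at enhancers. H3K27ac, the acetylated form of lysine 27, marks active promoters and enhancers and is written by p300 and CBP. The CoREST complex removes both kinds of mark: its demethylase LSD1 acts on mono- and dimethylated but not trimethylated lysine 4, and HDAC1 or HDAC2 removes acetyl groups. Corin is a hybrid molecule that joins an HDAC inhibitor of the entinostat type to an LSD1 inhibitor of the tranylcypromine type.

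MOLM-13 is a human acute myeloid leukaemia line with a fusion of KMT2A (MLL) to MLLT3 (AF9). Each mark was profiled by CUT&RUN, in which an antibody-bound nuclease releases the marked fragments, in 2 Corin-treated and 2 DMSO-treated libraries, with 24 h of treatment. The labels give 0.1 µM for the treatments, and the same figure for DMSO, where its meaning is unclear. Both groups are the same unedited line, and the labels do not say whether replicates were separate cultures, so p-values measure only the spread between these libraries. Of the 19 libraries of the series 12 were analysed; 7 (all-trans retinoic acid with Corin, LSD1 and IgG) were not analysed here.

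The lists give peaks and not reads, so every value below is the number of base pairs, or the percent of a region, under the peaks of a library. The labels state at least 5000000 reads per library, and the depth of each library is otherwise unknown. The H3K27ac lists held 34424 and 30029 peaks in Corin against 17599 and 19995 in DMSO. The H3K4me2 lists held 41152 and 40042 against 30896 and 32299, and the H3K4me3 lists 11757 and 11883 against 11104 and 11343. Of 10 myeloid leukaemia markers, the start sites of 5 (SPI1, CEBPA, FLT3, RUNX1 and MYB) lay in a shared H3K4me3 region, and CD33, MPO, LYZ, PTPRC and CSF1R did not. None of the 5 markers each of T cells, B cells, erythroid cells, and epithelium and liver had one.

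Promoter sequences of 7 domains are shown first. Below are the 250 bases upstream of the most upstream RefSeq start site inside the domain (RefSeq, GRCh38.p14), 5′ to 3′ on the gene's strand, with CpG dinucleotides in capitals. GFI1, RUNX1 and CXCR4 are shown because their differences between Corin and DMSO in a mark were among the largest, PRTN3 as a granule gene among those with higher H3K4me2 in Corin, and MEIS1, HOXA9 and CEBPA as regulators of myeloid leukaemia. None of the 7 stretches overlaps an annotated exon.
GFI1: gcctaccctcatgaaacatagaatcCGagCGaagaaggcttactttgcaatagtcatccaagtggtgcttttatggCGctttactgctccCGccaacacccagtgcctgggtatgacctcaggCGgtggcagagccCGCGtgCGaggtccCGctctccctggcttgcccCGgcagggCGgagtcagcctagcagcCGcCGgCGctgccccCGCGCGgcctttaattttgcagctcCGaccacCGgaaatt
RUNX1: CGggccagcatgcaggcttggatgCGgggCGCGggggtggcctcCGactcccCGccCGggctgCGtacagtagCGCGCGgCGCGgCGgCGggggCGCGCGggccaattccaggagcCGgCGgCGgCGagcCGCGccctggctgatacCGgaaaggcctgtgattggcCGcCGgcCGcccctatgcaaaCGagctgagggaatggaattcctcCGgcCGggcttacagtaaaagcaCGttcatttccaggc
CXCR4: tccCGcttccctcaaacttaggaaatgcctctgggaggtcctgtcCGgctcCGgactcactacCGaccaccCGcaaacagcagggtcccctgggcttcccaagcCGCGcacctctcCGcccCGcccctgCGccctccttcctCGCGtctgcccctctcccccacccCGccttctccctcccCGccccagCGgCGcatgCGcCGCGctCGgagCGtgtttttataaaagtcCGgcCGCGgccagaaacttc
PRTN3: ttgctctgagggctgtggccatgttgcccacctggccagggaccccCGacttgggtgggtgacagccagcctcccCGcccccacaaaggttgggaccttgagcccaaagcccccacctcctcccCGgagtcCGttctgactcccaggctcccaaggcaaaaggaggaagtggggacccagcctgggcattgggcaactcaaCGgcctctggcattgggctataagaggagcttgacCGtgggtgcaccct
MEIS1: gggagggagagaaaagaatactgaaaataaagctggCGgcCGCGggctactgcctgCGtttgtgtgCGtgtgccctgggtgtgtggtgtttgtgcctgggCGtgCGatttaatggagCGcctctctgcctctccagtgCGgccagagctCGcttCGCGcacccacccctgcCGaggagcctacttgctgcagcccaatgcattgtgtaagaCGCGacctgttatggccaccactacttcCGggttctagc
HOXA9: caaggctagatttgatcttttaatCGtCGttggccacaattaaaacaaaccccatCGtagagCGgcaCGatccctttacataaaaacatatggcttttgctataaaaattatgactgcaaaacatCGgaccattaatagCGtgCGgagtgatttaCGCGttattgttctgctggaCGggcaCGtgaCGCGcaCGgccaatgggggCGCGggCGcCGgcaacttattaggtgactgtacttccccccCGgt
CEBPA: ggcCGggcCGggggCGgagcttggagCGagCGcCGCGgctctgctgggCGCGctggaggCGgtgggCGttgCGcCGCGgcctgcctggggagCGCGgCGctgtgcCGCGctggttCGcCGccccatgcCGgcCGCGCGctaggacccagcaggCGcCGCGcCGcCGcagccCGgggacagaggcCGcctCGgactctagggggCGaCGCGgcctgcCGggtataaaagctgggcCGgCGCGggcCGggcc

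These 7 stretches range from CpG-poor to CpG-dense. PRTN3 (chr19:840749-840998, plus strand) held 6 CpGs. MEIS1 (chr2:66434875-66435124, plus strand) held 16, GFI1 (chr1:92486926-92487175, minus strand) 19, and HOXA9 (chr7:27165538-27165787, minus strand) 20. CXCR4 (chr2:136118150-136118399, minus strand) held 24, RUNX1 (chr21:34888700-34888949, minus strand) 32, and CEBPA (chr19:33302535-33302784, minus strand) 41.

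Promoters in broad and narrower regions had the same median CpG count, while the CpG-rich stretch reached further in the domains. RefSeq promoters, from 250 bases before to 50 after a start site, were available for 871 start sites in 489 of the domains. They held a median of 28 CpGs (quartiles 22 and 36), and the 8035 promoters in narrower regions also a median of 28 (quartiles 22 and 35). The 12707 promoters outside shared regions held a median of 10. For 414 domains the 1 coding gene with a start site inside also had its Ensembl canonical start site there, and these are called single-gene domains. Around that site, CpG density was 10.3 per 100 bp at 100 bp downstream, against 10.7 in 5744 single-gene narrower regions. At 1300 bp downstream it was 4.27 against 2.08, and at 1100 bp upstream 3.97 against 2.24. A domain held a median of 1600 bp of CpG-rich 200 bp windows (GC of at least 50% and an observed over expected CpG ratio of at least 0.6), and a narrower region 600 bp. As a share of length the order was the other way, with 45.7% of domain base pairs and 53.6% of those of narrower regions in such windows, and a median of 5.62 against 6.60 CpGs per 100 bp. Across the 871 promoters, domain width and promoter CpG count had a Spearman's rho of -0.0267, a description over promoters that share domains.

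In motif searches of the same promoters, both strands, the GC and CCAAT boxes had shares close to those of narrower regions, the TATA box a higher share, and the ETS and RUNX motifs lower ones. The GC box GGGCGG was found in 75.3% of the 871 domain promoters, in 76.4% of those in narrower regions and in 56.8% of all 21613 coding promoters. CCAAT was found in 34.6%, 36.5% and 34.9%. The TATA box TATAAA was found in 6.66% of domain promoters, 3.34% in narrower regions and 9.45% of all. The ETS motif CCGGAAGT was found in 5.97%, 10.8% and 5.41%. TGTGGT, the core bound by RUNX factors, was found in 6.54%, 8.59% and 11.3%. GAGGAA, a core bound by PU.1, was found in 29.5%, 26.1% and 28.0%, the E-box CACGTG in 9.07%, 11.1% and 8.35%, and the cAMP response element TGACGTCA in 2.41%, 3.51% and 2.29%. GAGGAA and CCGGAAGT share the letters GGAA. These are matches of letters and were not tested.

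The domains held more start sites than narrower regions. Domain width had a median of 3570 bp (quartiles 3235 and 4181) and reached 9513 bp, against a median of 1308 bp in narrower regions. In all the domains covered 2.49 Mb, which is 15.9% of the length of all shared regions. Of them 458 held a single peak of each list. Counted by width, 443 were under 4000 bp, 119 from there to under 5000 bp, 41 to under 6000 bp and the remaining 34 were wider still. Of the 637, 436 held the start site of 1 protein-coding gene, 158 (24.8%) of 2 or more and 43 of none, and in narrower regions 10.5% held 2 or more. Of the 147 domains with exactly 2 genes, 138 held a pair on opposite strands. A start site of a long non-coding RNA gene lay in 36.9% of domains and 18.9% of narrower regions, and 2.83% against 17.5% held no annotated start site. Wider regions have more room for start sites, and the part of width in these shares was not tested.

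Just inside the limit of 3000 bp lay a region of 3001 bp with no coding start site on chromosome 21, the CCNE2 and NDUFAF6 promoter (3003 bp) and TRIM25 (3004 bp). Just outside lay TOMM6 (2998 bp), SGMS1 (2993 bp) and ZC3HAV1 (2993 bp). On chromosome 6, 54 of 599 shared regions were domains (9.02%), and on chromosome X 10 of 303 (3.30%).

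The widest domain, 9513 bp at chr22:46071386-46080898, held no annotated coding or lncRNA start site and lay in MIRLET7BHG, the host gene of let-7 microRNAs. HNRNPU (9492 bp), which encodes a nuclear RNA-binding scaffold protein, and GFI1 (9474 bp), a zinc finger repressor that recruits LSD1 and CoREST, came next. TNRC18 (9322 bp), FUT4 (7980 bp, a fucosyltransferase that makes the CD15 antigen), RUNX1 (7875 bp), BRD2 (7771 bp, a reader of acetylated histones) and BAHCC1 (7597 bp) followed. Also among the 20 widest were an lncRNA region on chromosome 5 (7474 bp), CDKN2C (7313 bp, an inhibitor of CDK4 and CDK6), HOXA10 (7203 bp), MEIS1 (7048 bp) and CBX3 with HNRNPA2B1 (7004 bp). BCL11A (6987 bp), ZNF516 (6918 bp), ARID2 (6915 bp, a SWI/SNF subunit), WNK1 (6905 bp), MGME1 with SNX5 (6775 bp) and SATB1 (6681 bp, a chromatin organiser) were further members of the 20.

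In single-gene domains the mark reached further into the gene than upstream. The median stretch was 2500.5 bp downstream of the start site and 1167.5 bp upstream, and 345 of 414 (83.3%) extended further downstream, as did 88.1% of narrower regions. By annotation, 17.8% of the domains' base pairs were exons of coding genes, 49.2% introns and 33.0% outside coding genes. Of genes with a RefSeq start site in a domain, 27.1% of 613 had 2 or more such sites there, against 18.6% of 6495 in narrower regions. Outside shared regions it was 23.1% of 9317 genes. A wider region can hold more of a gene's sites, and the part of width was not tested.

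In all 760 coding genes had a start site in a domain, which is 8.43% of the 9011 coding genes with one in any shared region. This share is the background for the gene lists that follow. The lists overlap in part, and their shares are counts without a test.

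Targets of MLL fusion proteins, genes kept active by the kind of fusion that MOLM-13 carries, had the highest share in domains. Of 18 with a shared H3K4me3 region, 16 lay in a domain (88.9%). They were HOXA10, MEIS1, SATB1, CDK6, BCL2, HOXA9, ZEB2, CPEB2, MEF2C, PBX3, IGF2BP2, MYB, JMJD1C, HOXA11, RUNX2 and HOXA3, and the regions of FLT3 (2956 bp) and HOXA7 (2340 bp) were narrower. The median width of the 18 regions was 5151 bp, against 1589 bp over all coding genes with a shared region. HOXA9, a homeobox factor of leukaemic self-renewal, lay in a domain of 6016 bp, and its partner MEIS1 in one of 7048 bp. The 5 domains of HOXA3, HOXA9, HOXA10, HOXA11 and HOXA13 stood side by side in the HOXA cluster, together 24247 bp between positions 27150000 and 27201108 of chromosome 7.

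**Figure D1:**
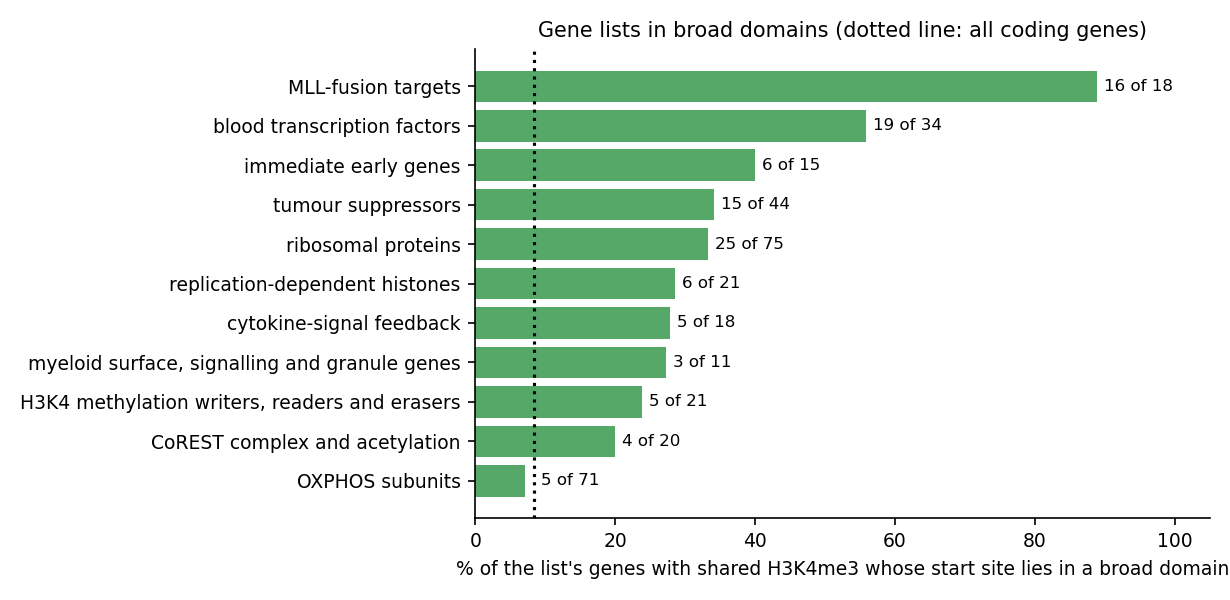
Share of each gene list in broad domains: bars give, on the x axis in percent, the genes whose start site lies in a broad domain among the list's genes with a shared H3K4me3 region, and the labels give the counts. The MLL-fusion targets stand at 88.9% and OXPHOS subunits at 7.04%, beside 8.43% of all coding genes (dotted line).

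Of 34 transcription factors of blood cells with a shared region, 19 lay in a domain (55.9%). The widest were GFI1, RUNX1, BCL11A (6987 bp), MEF2D (5892 bp) and ZEB2 (5720 bp), and SPI1, the master factor of myeloid cells, had one of 3081 bp. CEBPA, which drives granulocyte differentiation, had 5158 bp. Among the 15 in narrower regions were FLI1 (2824 bp), CEBPB (2714 bp) and LYL1 (2254 bp). Of immediate early genes, which respond to signals within minutes, 6 of 15 lay in a domain (40%): IER2, FOSL2, ZFP36L2, ZFP36, JUNB and FOS.

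Tumour suppressors stood at 15 of 44 (34.1%), among them RUNX1, CDKN2C, ARID2, KMT2D (5072 bp) and BCOR (4675 bp). Ribosomal protein genes stood at 25 of 75 (33.3%), from RPS2 (6572 bp) to RPS6 (3085 bp). Replication-dependent histone genes stood at 6 of 21 (28.6%) in 4 domains, since divergent pairs share one. Genes of cytokine feedback stood at 5 of 18 (27.8%: SOCS2, CISH, PIM1, MCL1 and SPRY2) and myeloid surface, signalling and granule genes at 3 of 11 (27.3%: SPN, PRTN3 and ITGAL).

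Writers, readers and erasers of H3K4 methylation stood at 5 of 21 (23.8%), namely SETD1B (5767 bp), KMT2D, ING1, KMT2A (3382 bp) and KMT2B. CoREST members and the acetylation machinery stood at 4 of 20 (20%), namely BRD2, GSE1, PHF21A and RCOR3. OXPHOS subunits stood at 5 of 71 (7.04%), close to the background. None of the 25 listed developmental transcription factors outside blood had a start site in any shared region, though others that are not on the list, such as SHOX2 (5255 bp, in a domain shared with RSRC1) and HES7 (4866 bp), lay in domains; these were named after their values were seen. The plot of list shares shows this order.

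The domains were nearly fully covered by H3K4me3 in Corin too. Mean coverage of the domains by H3K4me3 was 95.1% and 92.5% in the Corin libraries (93.8% ± 1.81, SD, n = 2) and 94.7% ± 0.0964 (SD, n = 2) in DMSO, which chose them. Both Corin libraries lay above both DMSO libraries at 54 domains and below both at 85 (all shared regions: 6.95% above and 14.9% below), from which nothing is read. The same rule applied to the Corin lists gave 707 domains of 10574 shared regions. Of the 637 DMSO domains 575 (90.3%) overlapped one of them, and of the 707 Corin domains 576 (81.5%) overlapped a DMSO domain. All 637 had a shared H3K4me3 region in Corin. Where it did not reach the width limit, 54 were from 2000 to under 3000 bp wide and 8 were under 2000 bp. The median width at the DMSO domains was 3658 bp in Corin and 3570 bp in DMSO, and 387 were wider in Corin and 250 narrower. At the Corin domains, chosen in Corin, it was 3597 bp in Corin and 3439 bp in DMSO, and 517 were narrower in DMSO and 190 wider. Widths in Corin and DMSO were not compared over all shared regions.

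H3K27ac covered more of the domains in Corin than in DMSO. Mean coverage was 65.6% and 58.4% in the Corin libraries (62.0% ± 5.11, SD, n = 2) and 42.2% and 47.4% in the DMSO libraries (44.8% ± 3.66, SD, n = 2). The groups did not overlap, and the difference was 17.2 percentage points (SD 6.29). An exact two-sided permutation test returned p = 0.333, the lowest value that 2 against 2 libraries can reach. Both Corin libraries covered more base pairs than both DMSO libraries at 388 domains (60.9%), against 37.4% of all shared regions, and fewer at 2 (all shared regions: 0.827%). The number of peaks moved with the treatment: with each H3K27ac list limited to its 17599 top-scoring peaks, 277 domains (43.5%) were higher and 12 lower, against 21.5% and 2.92% of narrower regions.

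Narrower regions also had more H3K27ac in Corin. Their mean coverage was 44.6% in Corin and 27.9% in DMSO, a difference of 16.7 points, and the 2 differences parted by 0.49 points (SD 2.14; exact permutation p = 0.667). That value was -0.58 without Corin replicate 1 or DMSO replicate 2. With equal numbers of peaks in the lists the difference was 12.03 points in domains and 8.35 in narrower regions, which parted by 3.69 points (exact permutation p = 0.333, the smallest possible). As ratios of Corin to DMSO the order was the other way, at 1.38 in domains and 1.60 in narrower regions, and 1.27 and 1.31 with equal numbers of peaks. Domains were covered more than narrower regions by 15.9 to 18.5 points in each of 4 libraries (mean 17.2; the exact sign-flip test was at the lowest p that 4 libraries can reach, a value that passes no usual threshold). The share of regions whose groups do not overlap needs base pairs to differ. All 4 libraries covered the same number at 17.0% of narrower regions, most without a peak, and at 0.785% of domains. Without those, 61.4% of domains and 43.2% of narrower regions were higher.

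**Figure D2:**
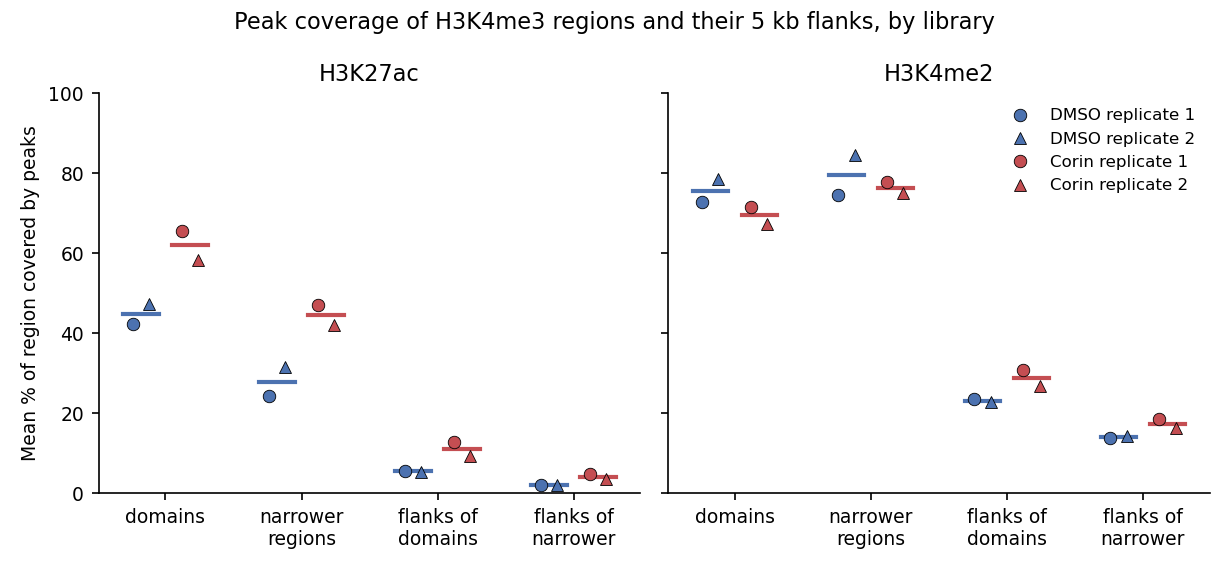
Mean percent of each region under H3K27ac (left) and H3K4me2 (right) peaks on the y axis, for domains, narrower regions and their 5 kb flanks; points are libraries and lines the means of 2. H3K27ac lies higher in both Corin libraries in all 4 places, while H3K4me2 lies lower inside the domains and higher in their flanks.

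H3K4me2 covered less of the domains in Corin than in DMSO. Every domain held an H3K4me2 peak in each of 4 libraries, and 97.4% and 97.0% of narrower regions did in both DMSO and in both Corin libraries. Mean coverage was 71.6% and 67.4% in Corin (69.5% ± 2.96, SD, n = 2) and 72.7% and 78.5% in DMSO (75.6% ± 4.10, SD, n = 2). The groups did not overlap, and the difference was -6.14 points (SD 5.06; exact permutation p = 0.333, again the lowest that can be reached). Both Corin libraries covered less than both DMSO libraries at 210 domains (33.0%), against 14.3% of all shared regions, and more at 13 (2.04%; all shared regions: 3.21%). With 1 library fewer to agree, the 210 became 391 without DMSO replicate 1 and 379 without Corin replicate 1. The 13 became 126 and 31 without DMSO replicates 2 and 1, and 37 and 81 without Corin replicates 1 and 2. Shares of all shared regions with 1 library fewer were not computed, so these counts have no background here. With the H3K4me2 lists limited to 30896 top-scoring peaks each, 242 domains (38.0%) were lower and 12 higher, against 15.5% and 2.51% of narrower regions. All 4 libraries covered the same base pairs at 42 domains and 25.9% of narrower regions, most fully covered. Without those, 35.3% of domains and 17.6% of narrower regions were lower.

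The size of this difference rests much on single libraries. It was -3.24 points without DMSO replicate 2 and -9.04 without DMSO replicate 1, and -4.05 without Corin replicate 2. With the width limit at 2000 bp it was -5.28 points and the groups overlapped (exact permutation p = 0.667). In narrower regions coverage was 76.5% in Corin and 79.7% in DMSO, a difference of -3.24 points in which the groups overlapped (exact permutation p = 1). The 2 differences parted by -2.90 points (SD 3.10; exact permutation p = 0.333, the smallest possible), and by -0.81 without DMSO replicate 1 and -5.00 without DMSO replicate 2. The groups overlapped in this value (exact permutation p = 0.667) against narrower regions of at least 1000 bp (-2.28), with equal numbers of peaks (-2.21) and with peaks up to 500 bp apart joined (-2.68). Domains were covered less by H3K4me2 than narrower regions by 1.96 to 7.62 points in each of 4 libraries (the exact sign-flip test was again at its lowest p).

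Position within the domain shows where each mark lies. Within 500 bp of the start site of single-gene domains, H3K4me2 covered 42.4% and 40.8% in Corin and 42.7% and 57.8% in DMSO, while H3K4me3 covered 95.5% or more in each library. In the rest of the domain H3K4me2 covered 80.0% and 75.8% in Corin and 81.3% and 84.5% in DMSO. At the centre DMSO replicate 2 lay above the other 3 libraries, which were within 2 points of each other. In the rest of the domain both DMSO libraries lay above both Corin libraries. H3K27ac had its highest coverage at the centre: 75.2% and 72.9% within 500 bp in Corin and 48.2% and 60.3% in DMSO, against 63.0% and 54.9%, and 40.9% and 44.3%, in the rest.

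**Figure D3:**
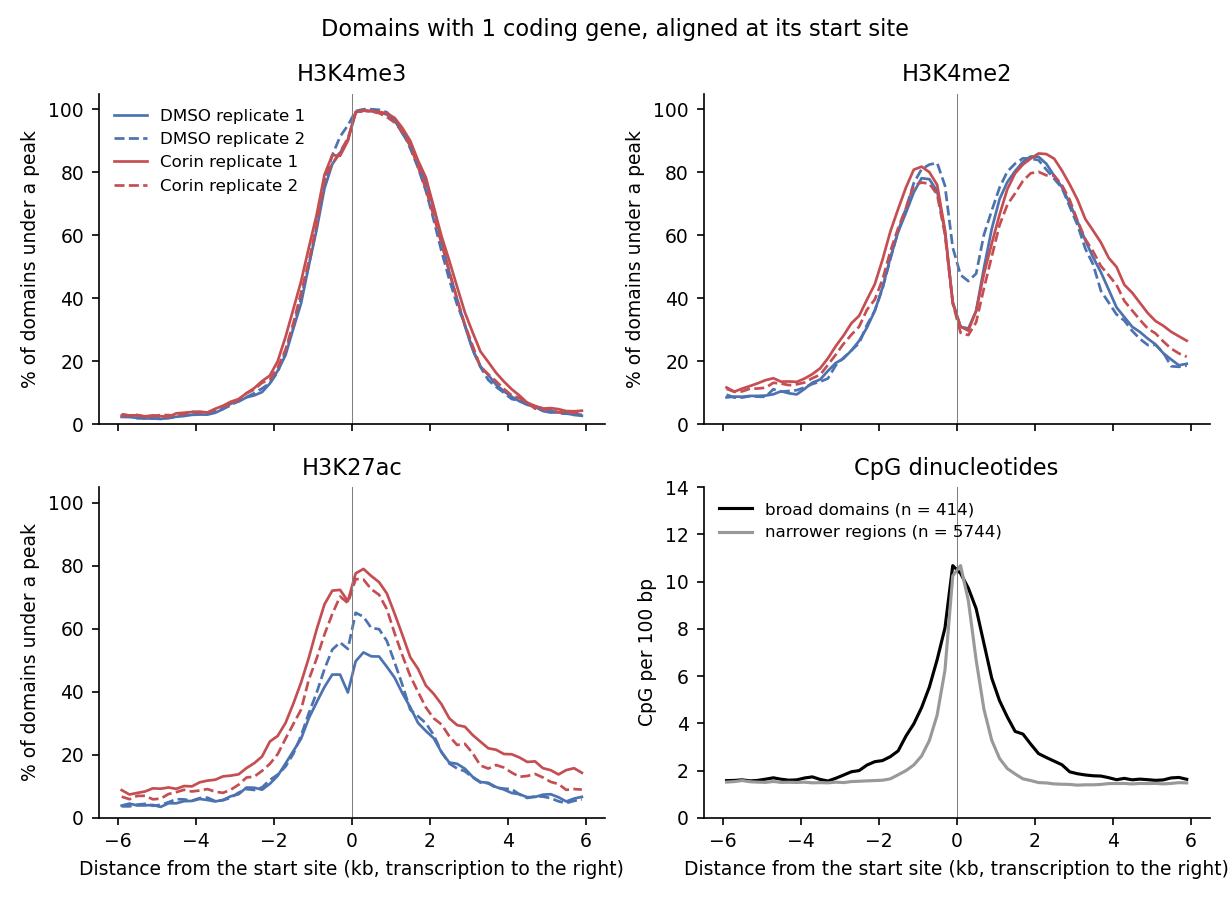
Percent of the 414 single-gene domains under a peak (y axis) by distance from the start site (x axis, kb) for H3K4me3, H3K4me2 and H3K27ac in each library, and CpG per 100 bp in domains and narrower regions. H3K4me2 dips to between 28.3% and 45.4% at 300 bp downstream, where H3K4me3 covers nearly all domains, and the CpG-rich stretch is wider in domains.

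Outside the domains both marks covered more in Corin. In the 5 kb on either side H3K27ac covered 11.01% ± 2.59 in Corin and 5.47% ± 0.0769 in DMSO (SD, n = 2 each), and H3K4me2 28.8% ± 2.74 and 23.1% ± 0.541 (SD, n = 2 each). Neither pair of groups overlapped, and p was 0.333 for both by exact permutation. H3K27ac in the flanks was higher in both Corin libraries at 276 domains (43.3%) and lower at 8 (all shared regions: 25.3% and 0.699%). With equal numbers of peaks the H3K27ac difference in the flanks went from 5.53 to 3.34 points, and without Corin replicate 1 that of H3K4me2 went from 5.72 to 3.79. With equal numbers of peaks in the lists the 276 became 180, and without Corin replicate 2 they became 434. The share of all shared regions was not computed in either setting, so the 25.3% is no background for these counts. H3K4me2 in the flanks was higher at 381 domains (59.8%) and lower at 11 (all shared regions: 49.4% and 2.33%). At 135 domains H3K4me2 was lower inside and higher in the flanks (21.2% of domains, 5.97% of narrower regions and 6.92% of all shared regions). Taken singly, these calls were made at 33.0% and 59.8% of domains, and at 13.0% and 48.7% of narrower regions. Whether they go together was not tested. The flank difference was larger beside domains than beside narrower regions by 3.41 points for H3K27ac (SD 1.78) and by 2.43 for H3K4me2 (SD 1.51), each with p = 0.333 by exact permutation. As ratios of Corin to DMSO the flanks stood at 2.01 beside domains and 2.05 beside narrower regions for H3K27ac, and 1.25 and 1.23 for H3K4me2.

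At the edges of the domains the sign of the H3K4me2 difference turned. From 900 to 1000 bp outside the H3K4me3 edge, H3K4me2 lay over 46.9% and 39.4% of edges in Corin and 34.8% and 32.9% in DMSO. From 400 to 500 bp inside it, it lay over 89.8% and 86.4% in Corin and 90.7% and 93.7% in DMSO. H3K27ac was higher in both Corin libraries at both distances, with 14.96% and 10.9% against 5.98% and 5.96% outside, and 59.8% and 50.2% against 38.2% and 39.8% inside.

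Higher H3K27ac and lower H3K4me2 in both Corin libraries were more frequent among the widest regions than among the narrowest. H3K4me2 was lower in both Corin libraries at 7.57% of regions under 1000 bp, 29.3% of those from 3000 to under 4000 bp and 58.8% of the 34 of 6000 bp or more. H3K27ac was higher at 20.6%, 59.1% and 73.5% of the same classes. Over the 7 width classes, from narrow to wide, the mean H3K4me2 difference was -1.86, -3.47, -4.96, -5.78, -6.79, -6.06 and -8.69 points. The mean H3K27ac difference was 15.1, 17.2, 18.2, 17.3, 15.9, 18.7 and 19.3 points, with no steady order by width. A wider region offers more base pairs in which lists can differ, and the part of that in these shares was not tested.

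**Figure D4:**
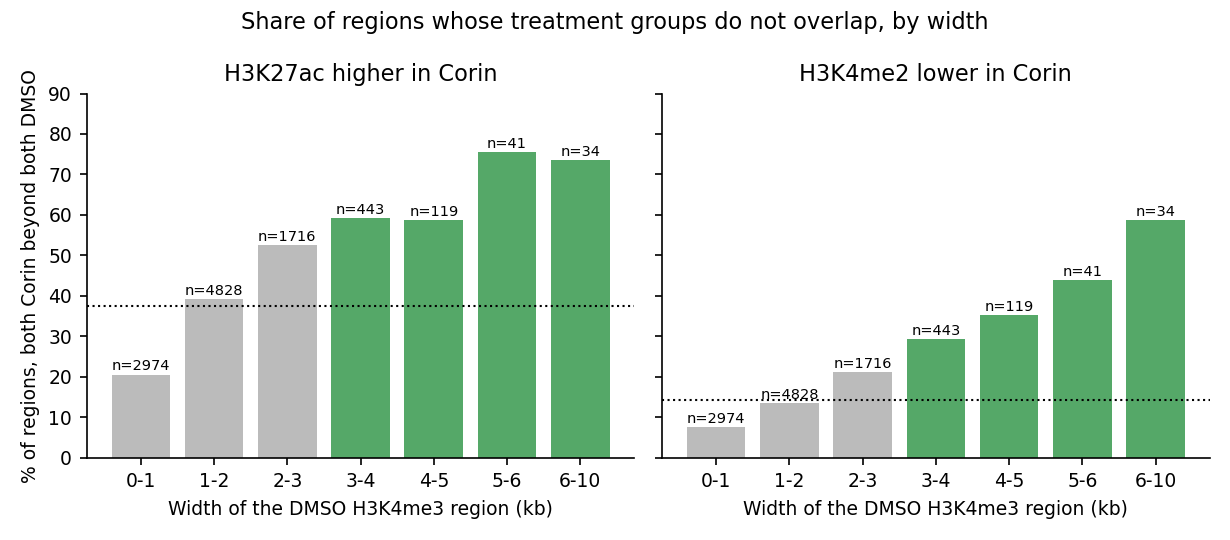
Percent of regions (y axis) with H3K27ac higher (left) or H3K4me2 lower (right) in each Corin library than in either DMSO library, by width of the H3K4me3 region (x axis, kb); green bars are domains, and the dotted lines are the 37.4% and 14.3% of all shared regions. Shares are higher in the widest classes, reaching 58.8% for H3K4me2 in 34 regions.

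In 140 domains H3K27ac was higher and H3K4me2 lower in both Corin libraries at once (22.0% of domains, 5.73% of narrower regions and 6.75% of all shared regions). H3K27ac was higher at 66.7% of the 210 domains with lower H3K4me2 and at 58.1% of the other 427, and in narrower regions at 545 of 1239 and 2869 of the other 8279. RUNX1 (chr21:34882687-34890561) was 1 of these. Its domain, at the promoter inside the gene from which a shorter form of the factor starts, had 5286 and 4102 bp of H3K27ac in Corin and 1943 and 1763 bp in DMSO, the largest mean H3K27ac difference among domains whose groups do not overlap (2841 bp). That rank rests on single libraries. Without Corin replicate 1 RUNX1 had 2249 bp and a domain inside GSE1 2497 bp. Without DMSO replicate 2 RUNX1 had 2751 bp, the domain inside GSE1 3185.5 bp and TNRC18 3200.5 bp. Without Corin replicate 2 RUNX1 had 3433 bp and TNRC18 4145 bp. The RUNX1 domain had 2717 and 1343 bp of H3K4me2 in Corin and 2794 and 4193 bp in DMSO. The Corin and DMSO libraries were well apart for H3K27ac, but for H3K4me2 the first Corin and DMSO libraries were nearly equal. At ZFP36L2, which encodes an RNA-binding protein that destabilises mRNAs, the groups were apart in both marks, with 3389 and 3664 bp of H3K27ac against 1139 and 1617 bp, and 1692 and 1236 bp of H3K4me2 against 2569 and 2308 bp.

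GFI1 (chr1:92478277-92487750) had the largest mean H3K4me2 difference, lower in Corin. The peaks covered 2878 and 3687 bp in Corin and 4276 and 6738 bp in DMSO, and H3K27ac 9474 and 9308 bp against 6777 and 7734 bp. The mean H3K4me2 difference of -2224.5 bp rests on DMSO replicate 2: without it, it was -993.5 bp, smaller than that of CXCR4 (-1786 bp). In Corin, H3K27ac thus spanned nearly all of the domain while H3K4me2 covered the smaller part of it. CXCR4 (chr2:136116279-136119365), the receptor for the chemokine CXCL12 that holds blood cells in the marrow, was fully covered by H3K4me2 in both DMSO libraries (3087 bp each) and over 1299 and 1303 bp in Corin. Here the replicates were nearly identical and the groups far apart. KMT2E, also among those with the largest differences, had 3082 and 2031 bp against 3441 and 4276 bp.

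**Figure D5:**
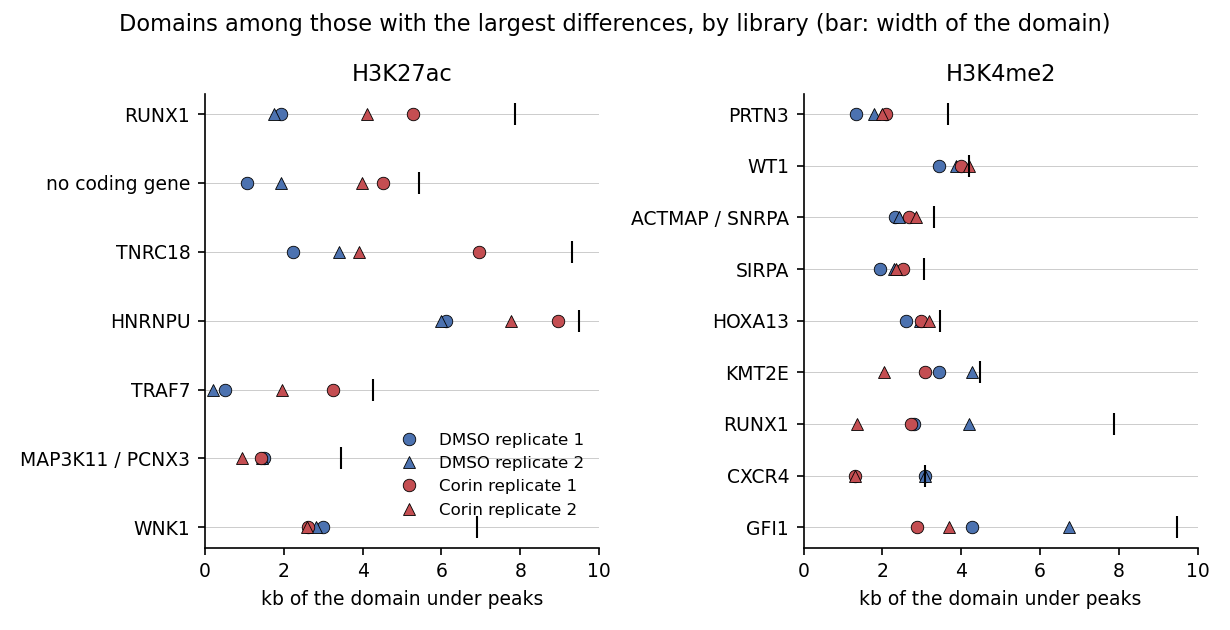
Base pairs (kb, x axis) under H3K27ac (left) and H3K4me2 (right) peaks in each library at domains among those with the largest differences; the vertical bar is the width of the domain. At RUNX1 both Corin libraries lie at 4102 bp or more for H3K27ac and both DMSO libraries at 1943 bp or less, and at CXCR4 H3K4me2 is at 1299 and 1303 bp in Corin while both DMSO values equal the width of the domain.

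Next in excess of H3K27ac in Corin came a domain inside GSE1, TNRC18, HNRNPU and TRAF7. The domain inside GSE1 (chr16:85553187-85558612) held no annotated start site and had 4506 and 3995 bp in Corin and 1065 and 1931 bp in DMSO. GSE1 is a protein found with CoREST. TNRC18 had 6965 and 3918 bp against 2241 and 3399 bp, a mean difference of 2621.5 bp that was 1098 bp without Corin replicate 1. HNRNPU had 8950 and 7776 bp against 6125 and 5985 bp. TRAF7, a ubiquitin ligase, had 3249 and 1959 bp against 502 and 201 bp. Only WNK1 (2617 and 2586 bp in Corin, 2993 and 2826 bp in DMSO) and the promoter of MAP3K11 and PCNX3 (1418 and 942 bp, 1496 and 1458 bp) had less H3K27ac in both Corin libraries.

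The 13 domains with higher H3K4me2 in Corin, a count that rests on which libraries must agree, had smaller differences than the leading ones with lower H3K4me2. PRTN3, the gene of the granule protease proteinase 3, had the largest mean difference (482.5 bp), with 2102 and 1979 bp in Corin and 1334 and 1782 bp in DMSO. It was 258.5 bp without DMSO replicate 1, below the 349.5 bp of SNRPA and ACTMAP, and 421 bp without Corin replicate 1, below the 533.5 bp of WT1. WT1 had 3994 and 4193 bp against 3443 and 3876 bp, and the promoter of SNRPA and ACTMAP 2679 and 2852 bp against 2309 and 2416 bp. SIRPA, an inhibitory receptor of myeloid cells, had 2519 and 2334 bp against 1930 and 2291 bp, and HOXA13 2971 and 3186 bp against 2594 and 2959 bp. At SIRPA and HOXA13 the nearest Corin and DMSO libraries lay under 50 bp apart.

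The counts of the gene lists stand beside those of all domains with coding genes. With each gene counted at its widest region, 592 domains held a coding gene, of which 364 had higher H3K27ac and 196 lower H3K4me2. Among the 16 domains of MLL-fusion targets 12 had higher H3K27ac, 0 lower, 0 higher H3K4me2 and 8 lower H3K4me2. HOXA9 had 3755 and 3369 bp of H3K27ac in Corin and 890 and 2083 bp in DMSO, and 2316 and 2241 bp of H3K4me2 against 2692 and 2675 bp. MEIS1 had 3356 and 2669 bp of H3K27ac against 2449 and 2141 bp, and 5801 and 4814 bp of H3K4me2 against 6174 and 6198 bp. BCL2, which blocks cell death, had 3303 and 2839 bp of H3K27ac against 1230 and 1695 bp. At HOXA10 the groups overlapped for both marks, with 5177 and 4305 bp of H3K27ac in Corin and 2700 and 4423 bp in DMSO.

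Among the 19 domains of blood transcription factors 14 had higher H3K27ac and 8 lower H3K4me2. BCL11A had 5325 and 4674 bp of H3K27ac in Corin and 2265 and 3288 bp in DMSO, and CEBPA 3852 and 4010 bp against 1812 and 3054 bp. SPI1 was fully covered by H3K27ac in 3 of 4 libraries, so a higher value could not be seen there. GATA2 had 1071 and 1305 bp of H3K27ac in Corin and 0 and 706 bp in DMSO, while H3K4me2 covered it almost wholly in each library (3875 to 3942 bp). At ZEB2, H3K4me2 covered 626 and 643 bp in Corin and 797 and 1060 bp in DMSO of a domain of 5720 bp.

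H3K27ac was higher at 5 of 5 domains of cytokine feedback genes and 5 of 6 of immediate early genes, and H3K4me2 lower at 1 and 3 of them. PIM1, a kinase induced by STAT5, had 459 and 1352 bp of H3K27ac in Corin and none in DMSO. FOSL2, an AP-1 subunit, had 3824 and 2105 bp of H3K27ac against 1006 and 984 bp, and 4387 and 4652 bp of H3K4me2 against 5377 and 5401 bp. Of 15 tumour suppressor domains 11 had higher H3K27ac and 9 lower H3K4me2. Of 25 ribosomal protein domains 15 had higher H3K27ac and 7 lower H3K4me2. H3K27ac was higher at 4 of 5 domains of H3K4 methylation genes, 2 of 4 of CoREST and acetylation genes, 2 of 3 of myeloid surface, signalling and granule genes and 2 of 5 of OXPHOS subunits, and H3K4me2 lower at 1, 2, 0 and 3 of them. Of 4 domains of histone genes 1 had lower H3K4me2 and 1 higher H3K27ac, H3C4 with 3501 and 3452 bp against 2429 and 2503 bp.

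A few domains had little or no H3K27ac in DMSO. Of the 637, 570 had an H3K27ac peak in both DMSO libraries and 22 in neither, against 31.5% of narrower regions in neither. Of the 22, 11 had a peak in both Corin libraries, against 601 of 3001 such narrower regions. Named after their values were seen, these included ZNF503 (1126 and 1179 bp), MNT (1258 and 1530 bp), NPR3 (665 and 785 bp) and the promoter of RPL41 and ZC3H10 (2019 and 1012 bp). HES7 (4866 bp wide), ADCY9 (4054 bp wide) and NKX2-3 (3108 bp wide) had none in any of the 4 H3K27ac libraries, and IRF8, an interferon regulatory factor of myeloid cells, had 482 bp in 1 Corin library. At the other end, 222 domains were covered to at least 50% by H3K27ac in both DMSO libraries and 391 in both Corin libraries (34.9% and 61.4%, against 14.6% and 36.2% of narrower regions). Of 295 domains under 50% in both DMSO libraries 80 reached it in both Corin libraries (27.1%, against 14.0% of 6055 such narrower regions), and of the 222 none was under it in both Corin libraries (6 of 1393 such narrower regions).

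Among the 25 domains with start sites of lncRNA genes only were MIR142HG, MALAT1 and SNHG5, named after their values were seen. MALAT1, an abundant nuclear RNA, had almost no H3K27ac (296 and 262 bp in Corin, 372 and 0 bp in DMSO of 4566 bp), and H3K4me2 over 2099 and 1154 bp in Corin and 2929 and 2580 bp in DMSO. MIR142HG, the host of the blood microRNA miR-142, had 3911 and 3970 bp of H3K27ac against 3098 and 3691 bp. In all 47 domains lay in 14 groups of 3 or more whose neighbours were at most 100 kb apart, among them the HOXA domains and a group with PRTN3.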

How the data were processed

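CUT&RUN of H3K27ac, H3K4me2 and H3K4me3 in MOLM-13 cells was analysed from 12 deposited peak lists. There is a list for each library, so replicates were not pooled by the authors before calling. The submitters' processing notes name Trim Galore, Bowtie2, Picard, MACS2 and GRCh38 (hg38), with no versions. The control and the calling threshold are not given in the sources used here. Each list holds chromosome, start, end and a score. The deposited score has no stated definition, takes whole values from 50 upwards, and was used solely for ranking or thresholding inside a list. None of the 292523 peaks ended past an hg38 chromosome end (0 peaks).

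Start sites were those of basic protein-coding and lncRNA transcripts of GENCODE release 44. Percent covered was computed for each region and each library with Python 3.11.15, numpy 2.4.6 and scipy 1.17.1. A region was called higher or lower when both Corin libraries covered more or fewer base pairs than both DMSO libraries. Groups were compared with exact two-sided permutation tests over libraries, and domains with narrower regions with exact sign-flip tests over libraries. Coverage was tested on simulated peaks. Named domains are the 20 widest, the 5 largest differences each way among domains whose groups do not overlap, list members by width and the 3 nearest the limit on each side; 1 domain that this rule names is not reported here. Domains described by little or no H3K27ac, and those of lncRNA genes, were chosen after their values were seen. The members and lists were chosen with earlier results of these data known. The alternatives tried were other widths, joins, score limits, peak numbers, flanks and libraries left out.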

Additional observations from a re-analysis of the deposited data

How the results depend on the processing

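The limits are 2 libraries per group, for which no test can pass a threshold, unknown read depth, and coverage that moves with the number of peaks called. Alternatives with domains from 1 DMSO list, and those for lower H3K4me2 and for the flank counts, were chosen after seeing the data. Of 166 alternative values over 16 results, the replicate block aside, 137 kept their direction, for counts stayed within 1.5 times, or for H3K4me3 coverage moved by less than the SD of the Corin libraries. The replicate numbers share no stated origin. Deviations of same-numbered libraries had correlations of 0.259 (H3K27ac), 0.241 (H3K4me2) and 0.224 (H3K4me3) over 10155 regions, and of 0.303, 0.267 and 0.389 over the 637 domains. A replicate block cannot move the mean difference of a balanced design, so it says nothing about stability: the H3K27ac and H3K4me2 differences are 17.2 and -6.14 points in the domains and 5.53 and 5.72 in the flanks (exact sign-flip p = 0.5, the smallest possible).

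The number of domains was 2353 at a width of 2000 bp, 194 at 4000 bp and 389 when 1 stretch of 3000 bp had to be covered by both lists. Under these 3 settings, in that order, domains with higher H3K27ac numbered 1291, 126 and 238, with higher H3K27ac in the flanks 761, 96 and 180, with higher H3K4me2 59, 4 and 7, and with higher H3K4me2 in the flanks 1299, 117 and 233. Those with lower H3K4me2 numbered 575 and 80 at the first and second. These counts are out of the 2353, 194 and 389 domains and move with that number. The settings choose among the same shared regions. Over all of these, H3K27ac was higher at 37.4%, and in the flanks at 25.3%. H3K4me2 was higher at 3.21%, higher in the flanks at 49.4% and lower at 14.3%. With equal numbers of peaks 180 domains had higher H3K27ac in the flanks, and the share of all shared regions was not computed in that setting. With peaks up to 500 bp apart joined, H3K4me3 covered 91.5% of domains in Corin. The H3K27ac difference between domains and narrower regions turned to -0.26 points against narrower regions of at least 1000 bp.

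Leaving out each library in turn, that value ranged from -0.58 to 1.56. It was 0.488 within each same-numbered pair of libraries, which leaving out 1 library breaks. For H3K4me2 the same value was -4.34 in the first such pair and -1.47 in the second. The count with higher H3K27ac in the flanks ranged from 309 to 434, with higher H3K4me2 from 31 to 126 and with lower H3K4me2 from 256 to 391. The cause of these movements was not tested, beyond fewer libraries having to agree. Shares of all shared regions with 1 library fewer were not computed, so these ranges have no background here.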
